A study of Mus musculus with 2 samples.

Results

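Foxp2-positive inhibitory neuroblasts are young GABA neurons that still carry the Dlx homeobox programme of the ventral forebrain and that already transcribe Foxp2, a forkhead transcription factor. They were selected by measured counts in the single-cell RNA-seq library of the mouse ventricular-subventricular zone (V-SVZ), the germinal tissue along the lateral ventricles, at postnatal day 2 (P2). A cell was taken as a member when it had at least 500 genes, at most 10% of its unique molecular identifiers (UMIs, counted transcripts) from mitochondrial genes, 4 or more UMIs of Dlx1, Dlx2, Dlx5 and Dlx6os1 together, and 2 or more UMIs of Foxp2. It could have at most 1 of Sp8, St18 and Prokr2 detected, at most 1 UMI of Ppp1r1b, Drd1 and Ebf1 together, no Lhx6 UMI, at most 1 Six3 UMI, and under 10 summed UMIs of 5 mitotic genes, Mki67, Top2a, Cenpf, Birc5 and Ube2c. In all, 259 cells met this rule, of 5700 deposited cells in the series, of 2442 P2 cells past the cell filter and of 1288 P2 cells within the Dlx and mitotic limits (20.1%, exact binomial 95% interval 18.0 to 22.4).

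The series has 2 libraries, 1 per age. The P2 cells were those of Emx1Cre;R26Eyfp fl/fl mice: Cre driven from Emx1 marks cells of the cortical primordium and their descendants with EYFP. That library held the dorsal and the lateral V-SVZ, taken after the cortex had been removed. At embryonic day 18 (E18), CD1 mice gave the other library, of the cortex together with the V-SVZ above the ventricle. The labels do not say how many animals went into a library. Both were sorted for live nucleated cells after papain digestion. With 1 library per age no test could be run, so values are given with 95% intervals that cover counting error only. UMIs from 1 cell are not independent draws, which these intervals do not include.

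Most GABA neurons of the forebrain are born in the ganglionic eminences and migrate while immature. The lateral eminence and the V-SVZ that follows it supply striatal projection neurons, olfactory bulb interneurons and the intercalated cells of the amygdala. In this lineage Meis2, Pbx3 and Tshz1 are transcription factors of dorsal lateral eminence derivatives, Sp8 and Prokr2 accompany olfactory bulb neuroblasts, Six3 accompanies striatal neurons of the indirect pathway, and Lhx6 marks interneurons of the medial eminence. Foxp2 is known for its part in vocal learning and motor sequences and is expressed by striatal neurons and by intercalated amygdala cells.

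The other 1029 Dlx-expressing P2 cells served for comparison and fell into 5 disjoint groups by the same genes: 301 low-Foxp2 cells that met every limit except that they had 0 or 1 Foxp2 UMI, 358 cells with 2 or 3 of Sp8, St18 and Prokr2 detected, 240 Six3 cells, 20 cells with Ppp1r1b, Drd1 or Ebf1, and 110 Lhx6 cells. The P2 library held 42572208 UMIs in 2778 barcodes, the E18 library 19986915 UMIs in 2922 barcodes, and the libraries shared 0 barcodes. The members held 2559408 UMIs in sum and the other Dlx-expressing cells 15540211. A member had a median of 8697 UMIs, against 11993 in the other Dlx-expressing cells and 10900 in the low-Foxp2 cells. Levels are therefore given as counts per 1000000 summed UMIs of a group (CPM), and shares of cells also after thinning each cell to 3000 UMIs. At 3000 UMIs the median number of genes was 1568 in 253 members and 1573 in 1017 other Dlx-expressing cells.

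Checked against their label, the members carried the genes of GABAergic neuroblasts. Dcx, a microtubule protein of migrating neurons, had a UMI in 99.2% of the members, against 97.9% of the other Dlx-expressing cells. Gad2, a GABA-synthesising enzyme, had one in 93.4% of the members and Sp9, a zinc-finger factor of lateral eminence neurons, in 90.7%. Gad1, the other such enzyme, was detected in 76.4%. In 40 P2 cells with microglial markers, which should lack these genes and had a median of 18509.5 UMIs, the shares were 20.0% for Dcx, 10% for Gad2 and for Sp9, and 2.50% for Gad1. Markers of other cell types were low. The 4 astroglial markers summed to 87.9 CPM in the members, against 216 CPM in the other Dlx-expressing cells. The 4 oligodendrocyte precursor markers summed to 121 CPM in the members and 163 CPM in the others, and the 6 microglial markers to 12.5 CPM in the members and 5.34 CPM in the others. A single member held 127 of the 225 astroglial UMIs and a single member 13 of the 32 microglial UMIs. Of defining markers, 1 excitatory, 1 endothelial and 1 ependymal gene had no UMI in any member. In all, 13 of the 259 members had 4 or more UMIs of the markers of another type, against 127 of the 1029 others.

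Foxp2 itself chose the members, so its level is a description. It had 2 to 34 UMIs in a member, with a median of 6, and reached 784 CPM over the members. It stood at 156 CPM over the other Dlx-expressing cells, and at 338 CPM in the Six3 group, 165 CPM in the Ppp1r1b/Drd1/Ebf1 group, 140.4 CPM in the Sp8/St18/Prokr2 group, 91.8 CPM in the Lhx6 group and 17.9 CPM in the low-Foxp2 group. Of 708 kept P2 cells with 2 or more Foxp2 UMIs, 497 lay within the Dlx and mitotic limits, and the rule left out 238 of these. The largest number of those left out, 118 of 240, was in the Six3 group, followed by 83 of 358 in the Sp8/St18/Prokr2 group, 25 of 110 in the Lhx6 group and 12 of 20 in the Ppp1r1b/Drd1/Ebf1 group. Foxp2 is therefore shared by several groups of Dlx-expressing cells. The members are those with 2 or more Foxp2 UMIs in which the other defining genes stayed within the limits of the rule. These genes were not all absent: 97 members had 1 of Sp8, St18 and Prokr2 detected, and 55 members had 1 Six3 UMI. None of the 40 microglial-marker cells had 2 Foxp2 UMIs, which allows a share of up to 8.81%, and 2 of the 40 had 1.

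Several transcription factors were high in the members beside Foxp2. Foxp4, the forkhead factor that can pair with Foxp2, had 215 CPM in the members (Poisson interval 197 to 234), against 44.2 CPM in the other Dlx-expressing cells (41.0 to 47.6). This is a log2 ratio of 2.28 (exact conditional interval 2.12 to 2.45), or 4.86-fold. The order of Foxp4 levels after the members was the Six3 group at 93.3 CPM, the Ppp1r1b/Drd1/Ebf1 group at 46.1 CPM, the Lhx6 group at 31.5 CPM, the Sp8/St18/Prokr2 group at 29.2 CPM and the low-Foxp2 group at 20.0 CPM. From the Ppp1r1b/Drd1/Ebf1 group down, the interval of each group overlapped that of the next, so this part of the order is not resolved. The intervals of the members and of the Six3 group overlapped no other. Foxp4 had a UMI in 70.7% of the members against 26.7% of the other Dlx-expressing cells, and after thinning in 44.7% of the members against 9.93% of the others.

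Pbx3, a homeodomain cofactor that binds DNA together with Meis proteins, had 876 CPM in the members and 265 CPM in the other Dlx-expressing cells (log2 ratio 1.73, interval 1.65 to 1.80). Meis2 was among the most abundant factors, with 2639 CPM in the members and 1481 CPM in the others (0.83, 0.79 to 0.87). Tshz1, a zinc-finger factor needed by intercalated amygdala cells and olfactory granule cells, had 561 CPM in the members and 209 CPM in the others (1.42, 1.33 to 1.51). For each of these 3 genes the members had the highest level of the 6 groups. Vax1, a ventral homeobox factor, was low but also highest here, at 32.4 CPM in the members and 14.7 CPM in the others (1.14, 0.76 to 1.51).

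**Figure D1:**
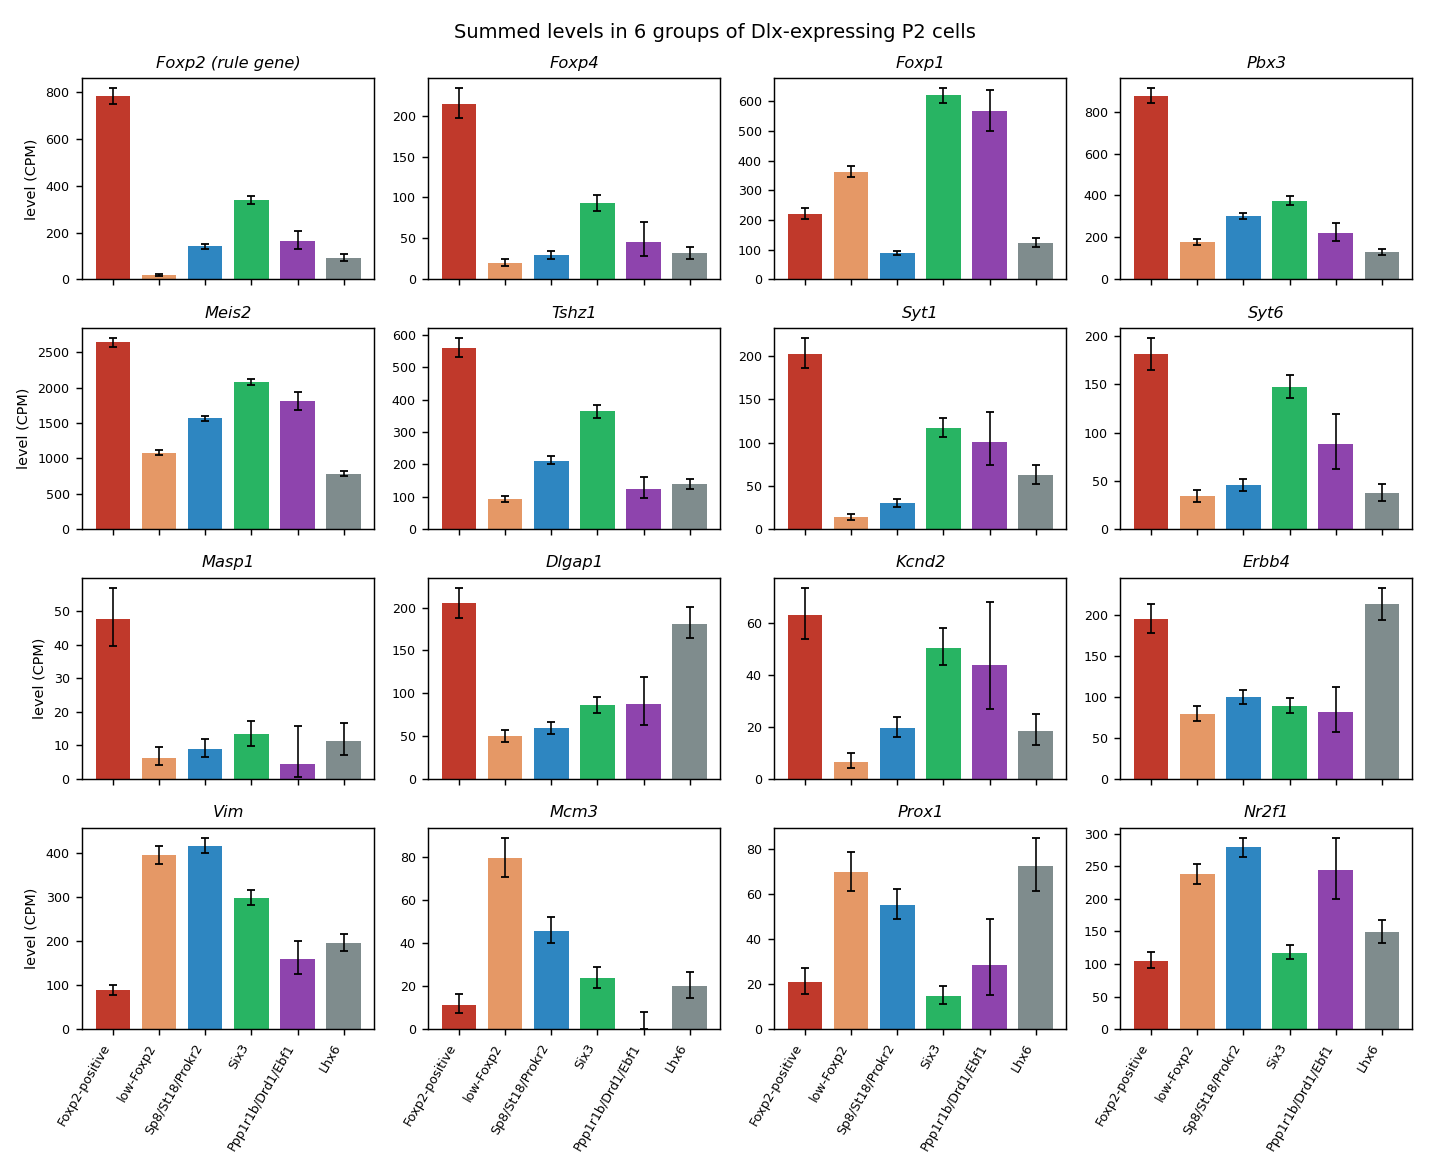
Summed level (CPM, linear axis from 0) of 16 genes in the Foxp2-positive neuroblasts (red, left) and in 5 groups of other Dlx-expressing P2 cells; bars are levels of 1 library and black lines are exact Poisson 95% intervals. Foxp2 chose the groups. Foxp4, Pbx3, Meis2 and Tshz1 are highest in the members, whereas Foxp1 is highest in the Six3 group at 619.7 CPM and Vim and Mcm3 are low in the members at 88.7 and 11.3 CPM.

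These factors were found in the same cells. Foxp4, Pbx3 and Tshz1 were all detected in 168 of the 259 members (64.9%, 58.7 to 70.7), and in 187 of the 1029 other Dlx-expressing cells (18.2%, 15.9 to 20.7). After thinning the shares were 34.8% of the members and 5.01% of the others. Among the other groups, the Six3 group came nearest at 37.5% unthinned and 13.8% thinned. Within the members Pbx3 ranged from 0 to 40 UMIs with a median of 8, Tshz1 from 0 to 28 with a median of 5, and Foxp4 from 0 to 11 with a median of 2. Only 2 members had none of these 3 genes.

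The remaining Foxp gene of the brain did not follow. Foxp1, which marks striatal projection neurons, had 221 CPM in the members and 309 CPM in the other Dlx-expressing cells (log2 ratio -0.48, interval -0.61 to -0.36). It was highest in the Six3 group, at 619.7 CPM. Foxp1 was uneven among the members: 173 of 259 had no Foxp1 UMI and the highest had 61. Foxp3, an immune factor, had no UMI in the members.

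On genome build GRCm38 the annotation places Foxp2 on the forward strand of chromosome 6 (chr6:14901349-15441977) and Foxp1 on the reverse strand of the same chromosome (chr6:98925338-99522721). Foxp4 lies on chromosome 17 (chr17:47867133-47924645, reverse), Pbx3 on chromosome 2 (chr2:34171457-34373142, reverse), Masp1 on chromosome 16 (chr16:23449417-23520815, reverse), Syt1 on chromosome 10 (chr10:108497650-109010982, reverse) and Syt6 on chromosome 3 (chr3:103575231-103645569, forward). The levels are counts over whole genes.

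Against all other Dlx-expressing cells, 36 of 6448 measured genes were at least 2-fold higher in the members (0.558%) and 76 at least 2-fold lower (1.18%). A gene counts as measured here when the mean of the 2 levels is 20 CPM or more, and genes of the rule, mitochondrial genes and EYFP are left out. The median log2 ratio over the measured genes was -0.00. In comparisons chosen after the values were seen, 67 genes were higher when the other cells with 2 or more Foxp2 UMIs were left out, and 50 were lower when cells with 4 or more UMIs of the markers of another type were left out. The 15 leading higher genes, ordered by the end of their interval closest to 0, were Foxp4, Masp1, Syt1, Pbx3, Tshz1, Pxylp1, Gabbr2, Syt6, Dlgap1, Ociad2, Kcnd2, Galnt17, Ntng1, Dnm3 and Runx1t1.

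Several of them belong to synapses and membranes. Syt1, the calcium sensor of fast transmitter release, had 203 CPM in the members and 54.8 CPM in the others (1.89, 1.73 to 2.05), and Syt6, a relative of it, 181 CPM in the members and 68.9 CPM in the others (1.39, 1.23 to 1.55). Masp1, a protease first known from the complement pathway, had 47.7 CPM in the members and 9.65 CPM in the others (2.30, 1.95 to 2.66). It came from 74 of the 259 members, with at most 6 UMIs in 1 cell. Gabbr2, a subunit of the GABA-B receptor, had 37.9 CPM in the members and 12.2 CPM in the others. Kcnd2, an A-type potassium channel, had 62.9 CPM in the members and 25 CPM in the others. Dlgap1, a postsynaptic scaffold protein, had 205 CPM in the members and 81.4 CPM in the others, with 181 CPM in the Lhx6 group alone. Ntng1, a netrin-related membrane protein, had 71.9 CPM in the members and 30.7 CPM in the others, and Runx1t1, a transcriptional corepressor, 448 CPM in the members and 218 CPM in the others. Against the Six3 group alone, the log2 ratio was under 1 for Syt1 (0.79), Gabbr2 (0.64), Runx1t1 (0.38), Kcnd2 (0.32) and Syt6 (0.30). It was above 1 for Masp1 (1.84), Ntng1 (1.31) and Dlgap1 (1.25). Of these 15 genes, 3 dropped under 2-fold under another setting: Kcnd2 had a log2 ratio of 0.78 with no Six3 UMI allowed, Ntng1 0.81 with none of Sp8, St18 and Prokr2 allowed, and Runx1t1 0.96 at its lowest.

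The 12 leading lower genes were Crabp1, Npy, Zfp536, Maf, Igfbp5, Vim, Nxph1, Sox5, Mdk, Mcm3, Sox6 and Cdk6. Of these, Crabp1, Npy, Zfp536, Maf, Nxph1, Sox5 and Sox6 were highest in the Lhx6 group among the 6 groups. Npy, a neuropeptide, had 8.99 CPM in the members, against 625 CPM in the Lhx6 group and 9.07 CPM in the low-Foxp2 group. Without the Lhx6 group among the others, a comparison chosen after its values were seen, the log2 ratio of Npy was -0.09 and that of Nxph1 -0.35, in place of -3.38 and -2.20. Crabp1 and Maf were still more than 2-fold lower without it, with Maf at -1.35 in place of -2.75. Both then had a mean under 20 CPM, so neither counted as measured. Crabp1 had 6 UMIs in the members, 2.34 CPM. Its log2 ratio was -0.86 (-2.51 to 0.56) against the low-Foxp2 group, -1.63 (-3.16 to -0.38) against the Sp8/St18/Prokr2 group and -1.59 (-3.15 to -0.29) against the Six3 group. Maf had 9.77 CPM in the members, against 34.4 CPM in the low-Foxp2 group and 27.7 CPM in the Sp8/St18/Prokr2 group. Against the Six3 group, at 12.6 CPM, the log2 ratio of Maf was -0.36 (-1.12 to 0.36). Vim, the intermediate filament of progenitors, had 88.7 CPM in the members, against 395 CPM in the low-Foxp2 group, 416 CPM in the Sp8/St18/Prokr2 group and 297 CPM in the Six3 group. Sox5, a factor reported to bind Foxp2, had 16.0 CPM in the members and 65.9 CPM in the others. Mdk, a secreted growth factor, had 68.4 CPM in the members and 233 CPM in the others.

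**Figure D2:**
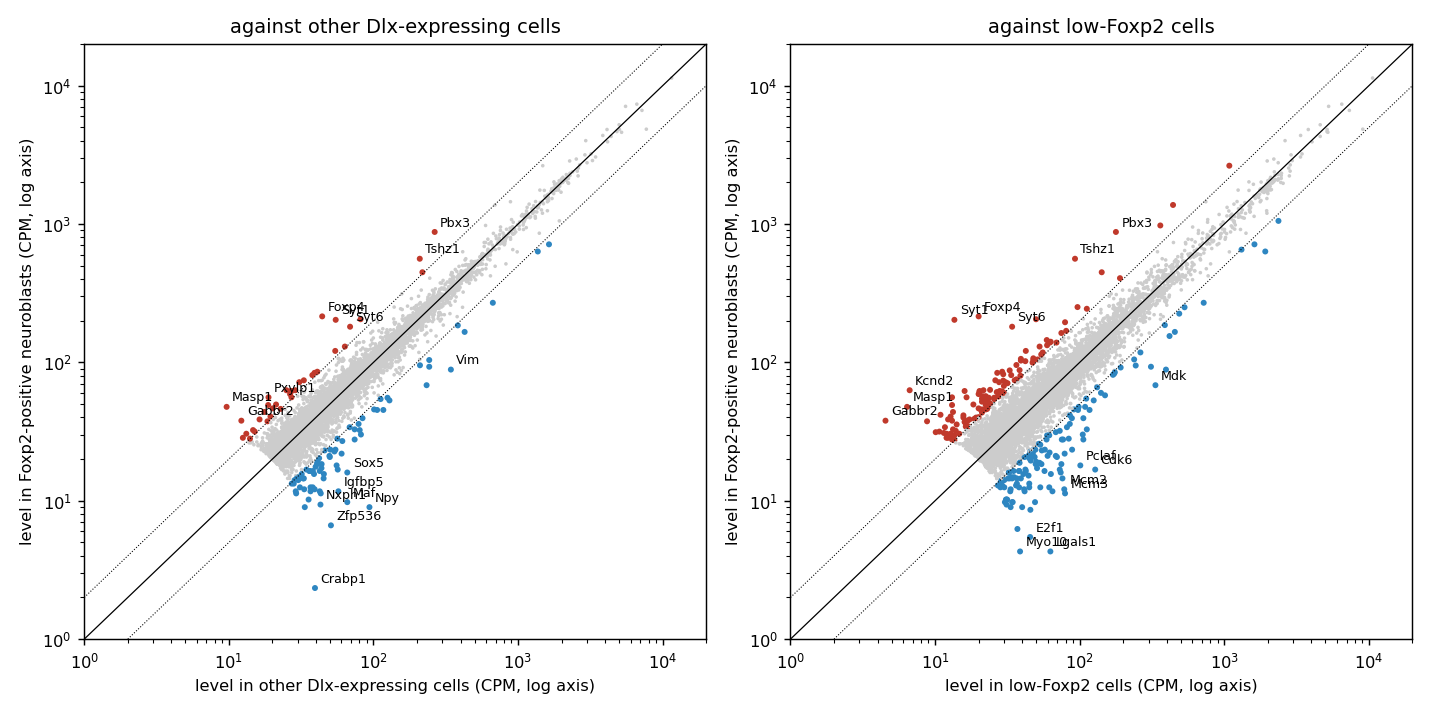
Level in the Foxp2-positive neuroblasts (vertical, CPM, log axis) against the level in all other Dlx-expressing cells (left panel) and in the low-Foxp2 cells (right panel; horizontal, CPM, log axes), 1 point per measured gene with a UMI in both groups. The full line is equality and dotted lines are 2-fold; red genes are at least 2-fold higher in the members (36 on the left, 120 on the right) and blue genes at least 2-fold lower (76 and 133), with some of the leading genes named.

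The low-Foxp2 cells met the same limits on every other gene of the rule, so only the Foxp2 limit divided these groups. Within the shared limits they still differed in other rule genes. The members had less Sp8 (35.9 against 102 CPM), St18 (7.03 against 45.6 CPM) and Ube2c (12.5 against 37.6 CPM). They had more Prokr2 (34.0 against 5.07 CPM) and Six3 (21.5 against 6.67 CPM). No UMI of the 5 mitotic genes was found in 64.5% of the members and 48.8% of the low-Foxp2 cells. Here 120 of 6421 measured genes were at least 2-fold higher in the members (1.87%) and 133 at least 2-fold lower (2.07%). The 10 leading higher genes were Syt1, Foxp4, Kcnd2, Tshz1, Gabbr2, Masp1, Pbx3, Syt6, Dlgap1 and Pxylp1. Syt1 had 203 CPM in the members and 13.6 CPM in the low-Foxp2 cells (log2 ratio 3.90, interval 3.48 to 4.34). Foxp4 had 215 CPM in the members and 20.0 CPM in the low-Foxp2 cells (3.42, 3.07 to 3.79), a 10.7-fold difference. Kcnd2 had 62.9 CPM in the members and 6.67 CPM in the low-Foxp2 cells (3.24, 2.62 to 3.91). Tshz1 had 561 CPM in the members and 92.8 CPM in the low-Foxp2 cells (2.60, 2.43 to 2.77), and Meis2 2639 CPM in the members and 1083 CPM in the low-Foxp2 cells (1.28, 1.23 to 1.34).

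The 8 leading lower genes were Lgals1, Cdk6, Myo10, E2f1, Mcm3, Mcm2, Mdk and Pclaf, of which Cdk6, E2f1, Mcm2, Mcm3 and Pclaf act in the entry to and passage through S phase. Lgals1, a galectin, had 4.30 CPM in the members and 62.7 CPM in the low-Foxp2 cells (-3.87, -4.89 to -3.00). Cdk6, a G1 kinase, had 16.8 CPM in the members and 128 CPM in the low-Foxp2 cells (-2.93, -3.41 to -2.48). Mcm2, a subunit of the replicative helicase, had 12.1 CPM in the members and 78.2 CPM in the low-Foxp2 cells (-2.69, -3.27 to -2.15). The summed level of the S phase list was 418 CPM in the members and 1041 CPM in the low-Foxp2 cells, and the same limit on mitotic genes applied to both. The part of cell cycle stage in the other differences between these groups was not tested.

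Syt1 and Kcnd2, both named in that ranking, have RefSeq starts with no annotated exon in the 250 bases before them. These bases are shown so that both promoters can be read, with capitals marking a match on either strand to the homeodomain core TAATTA, the Meis core TGACAG or the forkhead core GTAAACA, which do not overlap one another here. The Syt1 start shown is one of 2 and lies inside the gene (GRCm38.p6, chr10:109009112-109009361, reverse strand), and the Kcnd2 window is chr6:21215096-21215345 on the forward strand. Both are written 5′ to 3′ along the gene.
Syt1: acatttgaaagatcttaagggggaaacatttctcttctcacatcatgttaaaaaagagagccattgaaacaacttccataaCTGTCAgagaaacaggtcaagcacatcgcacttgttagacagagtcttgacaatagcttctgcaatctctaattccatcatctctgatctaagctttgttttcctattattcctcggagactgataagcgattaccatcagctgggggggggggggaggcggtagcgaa
Kcnd2: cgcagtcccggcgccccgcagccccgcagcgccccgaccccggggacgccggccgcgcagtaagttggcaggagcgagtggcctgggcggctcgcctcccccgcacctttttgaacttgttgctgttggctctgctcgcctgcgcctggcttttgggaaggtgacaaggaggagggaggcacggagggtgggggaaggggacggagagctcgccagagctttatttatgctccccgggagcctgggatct
The Syt1 window held 1 match to the Meis core, on the opposite strand, and the Kcnd2 window held none of the 3. The 16 genes looked up were Foxp2 and the 15 leading higher genes. Of these, 11 had a promoter in the part of the RefSeq table used, with 15 starts between them. That part leaves out a chromosome that the shares over all promoters include. The homeodomain core stood in 1 of the 15 windows, the Meis core in 2 and the forkhead core in 1. Over all 32851 promoters of the same length, the shares were 4.84% for the homeodomain core, 15.9% for the Meis core and 3.17% for the forkhead core. A match is a string of letters, not a bound site, and 15 windows are too few to set a share beside those of all promoters.

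Among the cells that met every limit other than Foxp2, levels could be followed over the number of Foxp2 UMIs in the cell. Foxp4, Pbx3 and Tshz1 were leading higher genes when these same cells were split at 2 Foxp2 UMIs. Higher levels past that limit were therefore given in advance for these genes. Foxp4 stood at 17.3 CPM in 234 cells with 0 Foxp2 UMIs, 31.0 CPM in 67 cells with 1, 82.4 CPM in 33 cells with 2, 164 CPM in 58 cells with 3 or 4, 237 CPM in 93 cells with 5 to 9, and 283 CPM in 75 cells with 10 or more. Pbx3 ran over the same steps through 150.0, 292, 359, 679, 983 and 1117 CPM. Tshz1 ran through 80.8, 141, 229, 412, 689 and 670.0 CPM, and the intervals of the last 2 steps overlapped (634 to 748 and 615 to 728). Median UMIs per cell lay between 7961 and 11321 over these steps, with no step of the members above the cells with 0.

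Mcm3, Hmgn2, Tcf4 and Nfia ran the other way. Of these, Hmgn2, Tcf4 and Nfia were chosen after their values were seen. Mcm3 was a leading lower gene against the low-Foxp2 cells, so its lower level past the limit was also given in advance. Mcm3 stood at 84.8, 56.6, 44.1, 12.4, 3.59 and 4.87 CPM from 0 to 10 or more Foxp2 UMIs. Hmgn2, a chromatin protein abundant in progenitors, stood at 2011, 1555, 1630, 626, 452 and 410.5 CPM. Tcf4, a basic helix-loop-helix factor, stood at 1649, 1486, 1283, 734, 635 and 542 CPM, and Nfia, a factor of glia and late neurons, at 319, 280.2, 203, 69.3, 79.0 and 78.0 CPM. For Mcm3, the level of 44.1 CPM in cells just inside the limit, with 2 Foxp2 UMIs, had an interval of 24.7 to 72.8 that overlapped that of cells with 1 UMI (40.8 to 76.5) and not that of cells with 5 to 9 (0.740 to 10.5).

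**Figure D3:**
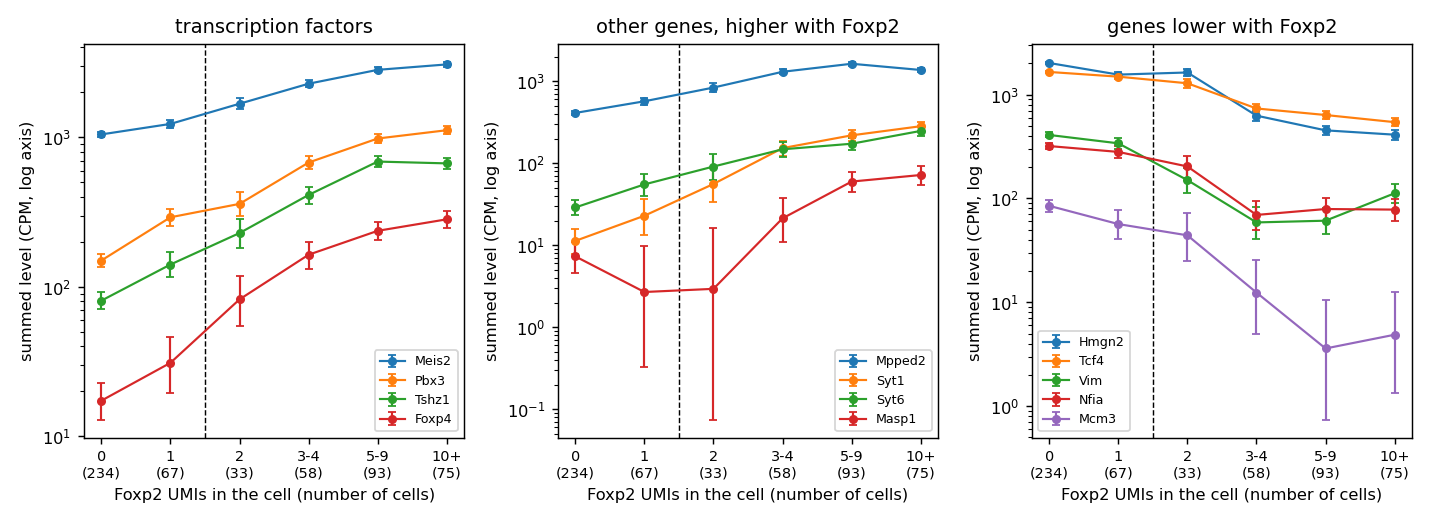
Summed level (CPM, log axis) of 13 genes over the number of Foxp2 UMIs in the cell, with the number of cells in brackets, among P2 cells that met every other limit; points are levels, lines through them exact Poisson 95% intervals, and the dashed line is the lower limit of the rule at 2 UMIs. Foxp4 runs from 17.3 to 283 CPM and Mcm3 from 84.8 to 4.87 CPM between the first and the last step.

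The gene lists place the members by roles. Of 15 genes of migrating neuroblasts, all were measured and none differed 2-fold from the other Dlx-expressing cells, with a median log2 ratio of 0.14, beside -0.00 over all measured genes. The 5 genes of GABA synthesis and transport had a median of 0.07, with none past 2-fold. Of the 9 measured genes of the dorsal lateral eminence and olfactory bulb list outside the rule, 3 were at least 2-fold higher, Tshz1, Vax1 and Pbx3, and none lower, with 5 above and 4 below 0 and a median of 0.71. Those below 0 were Pax6, Etv1, Sall3 and Tiam2: Pax6 had 54.7 CPM in the members and 90.4 CPM in the others, and Etv1 91.4 CPM in the members and 151 CPM in the others. Sall3 had 21.1 CPM in the members and 36.4 CPM in the others, with a log2 ratio of -1.51 against the low-Foxp2 cells, and Tiam2 261 CPM in the members and 297 CPM in the others. Zic1, a zinc-finger factor of the medial and septal wall, had no UMI in 259 members, which allows up to 1.41% of cells with one. It was also rare elsewhere, with a UMI in 17 of 1029 other Dlx-expressing cells (1.65%) and in 0 of 240 Six3 cells.

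The intercalated amygdala list, 6 genes of which 5 were measured, had a median of 0.83 against the other Dlx-expressing cells, with 2 genes 2-fold higher, and of 1.42 against the low-Foxp2 cells, with 4 higher and none lower. Against the Six3 group its median was 0.34, with 1 of 5 measured genes 2-fold higher. Pax6, also in this list, was below 0 against the other Dlx-expressing cells (-0.72) and the low-Foxp2 cells (-0.58). Tle4, a corepressor in this list, had 87.5 CPM in the members, against 32.8 CPM in the low-Foxp2 cells and 167 CPM in the Six3 group. Oprm1, the mu-opioid receptor by which mature intercalated cells are known, had 9 UMIs in 9 members, 3.52 CPM, against 1.03 CPM in the other Dlx-expressing cells. The list of eccentric striatal neuron and patch genes shares Tshz1 and Oprm1 with the intercalated list and had a median of 0.65 against the other Dlx-expressing cells and 1.39 against the low-Foxp2 cells. Against the Six3 group its median was -0.10, with none of 5 measured genes past 2-fold. Otof and Casz1 stand in the eccentric list only: Otof had no UMI in any Dlx-expressing group, and Casz1 had 15.2 CPM in the members and 9.39 CPM in the others. Both lists were written with earlier results of these data known. Tshz1 is in both, and Meis2 and Pbx3 are in the intercalated list only. Tshz1, Meis2, Pbx3 and Pax6 also stand in the dorsal lateral eminence and olfactory bulb list, so the lists are not separate evidence.

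Genes of striatal projection neurons stood near the other Dlx-expressing cells. Of 7 measured outside the rule, none was past 2-fold, and the median was -0.06. Bcl11b, a zinc-finger factor of striatal neurons, had 452 CPM in the members, against 470.1 CPM in the other Dlx-expressing cells and 889 CPM in the Six3 group. Genes of the mature pathways were nearly absent: Drd2, the dopamine receptor of the indirect pathway, had 4.30 CPM in the members and 28.4 CPM in the Six3 group, and Penk, its peptide, 3 UMIs in 1 member, 1.17 CPM, against 13.6 CPM in the Six3 group. Tac1, the peptide of the direct pathway, had a UMI in 6 members. Isl1, a factor of direct pathway neurons, had 19.1 CPM in the members and 3.86 CPM in the others, but its 49 UMIs came from 6 of 259 cells, 1 of which held 28. The share of cells with an Isl1 UMI was 2.32% in the members and 2.33% in the others.

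Interneuron genes of the other eminences were low against the other Dlx-expressing cells as a whole. Of 6 measured genes of caudal eminence interneurons, 2 were at least 2-fold lower than in the other Dlx-expressing cells, Prox1 and Htr3a, and none higher, with a median of -0.82. Prox1, a homeobox factor, had 20.7 CPM in the members and 49.9 CPM in the others (-1.27, -1.70 to -0.87). Nr2f1, an orphan receptor, had 105 CPM in the members and 209 CPM in the others, and its relative Nr2f2 42.2 CPM in the members and 66.3 CPM in the others. Adarb2, used as a marker of caudal interneurons, ran against its list with 313 CPM in the members and 157 CPM in the others (0.99, 0.88 to 1.11). Against the Six3 group, of 4 measured genes of this list 1 was 2-fold higher and none 2-fold lower, with a median of 0.70, and Nr2f2 had 42.2 CPM in the members and 25.9 CPM in the Six3 group. The medial eminence list summed to 251 CPM in the members and 1619 CPM in the Lhx6 group. Its sum was 316 CPM in the low-Foxp2, 359.8 CPM in the Sp8/St18/Prokr2, 233 CPM in the Six3 and 219 CPM in the Ppp1r1b/Drd1/Ebf1 group. Against all other Dlx-expressing cells the list had a median of -1.86 over 5 genes, with 3 at least 2-fold lower. Because the rule bars Lhx6 UMIs and the others include the Lhx6 group, this median cannot be told apart from the selection. Against the Six3 group none of 2 was past 2-fold. The neuropeptides Sst, Vip and Cck were at 1.95, 0 and 0 CPM in the members, and of 14 neuropeptide genes only Npy was measured against the other Dlx-expressing cells.

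S phase genes were lower in the members than in the low-Foxp2 cells, and none of those measured against the Six3 group was past 2-fold. Of 13 measured S phase genes, 8 were at least 2-fold lower against the low-Foxp2 cells and none was above 0, with a median of -1.75, beside 0.02 over all measured genes. Against all other Dlx-expressing cells 6 of 12 were 2-fold lower, with a median of -0.99. Against the Six3 group 8 were measured, with 4 above and 4 below 0 and a median of -0.01. Some genes named above fell below the level limit there. Their log2 ratios were -1.51 for E2f1 (-2.46 to -0.66), -1.06 for Mcm3 (-1.71 to -0.45) and -0.36 for Mcm2 (-1.04 to 0.28). The summed level was 418 CPM in the members, 475 CPM in the Six3 group, 441 CPM in the Lhx6 group and 331 CPM in the Ppp1r1b/Drd1/Ebf1 group. Of 11 measured progenitor and Notch genes, 6 were 2-fold lower against the low-Foxp2 cells, with a median of -1.17, and against the Six3 group 4 of 10 were, with a median of -0.69. Among them, Egfr, the receptor of transit-amplifying cells, had 6.25 CPM in the members and 37.1 CPM in the low-Foxp2 cells, and Dll3, a Notch regulator, 16.8 CPM in the members and 72.8 CPM in the low-Foxp2 cells. Sox2 was not lower, at 349 CPM in the members and 288 CPM in the low-Foxp2 cells. Of oligodendrocyte lineage markers, 3 of 3 measured were 2-fold lower, with Olig1 at 94.9 CPM in the members and 244 CPM in the low-Foxp2 cells.

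Genes of neuronal maturation and excitability were higher in the members than in the low-Foxp2 cells, with smaller medians against other groups. Against the low-Foxp2 cells 12 of 12 measured maturation genes were above 0, 3 of them 2-fold, with a median of 0.72. The median was 0.33 against all other Dlx-expressing cells, with 1 of 13 past 2-fold, and 0.16 against the Six3 group, with none of 12 past 2-fold and 4 below 0. Rbfox1, a splicing regulator of neurons, had 45.3 CPM in the members, against 20.8 CPM in the low-Foxp2 cells and 50.3 CPM in the Six3 group. Of 9 measured voltage-gated channel genes, 5 were at least 2-fold higher than in the low-Foxp2 cells and none 2-fold lower, with a median of 1.08, beside 1 of 9 and a median of 0.44 against the Six3 group. Scn3a, the sodium channel of embryonic neurons, had 103 CPM in the members and 39.2 CPM in the low-Foxp2 cells (1.40, 1.10 to 1.70), and Cacna2d3, a calcium channel subunit, 62.9 CPM in the members and 21.6 CPM in the low-Foxp2 cells (1.54, 1.15 to 1.95). Gabra2, a subunit of the GABA-A receptor, had 28.9 CPM in the members and 12.5 CPM in the low-Foxp2 cells. Of the AMPA receptor genes, Gria1 had 41.8 CPM in the members and 10.9 CPM in the low-Foxp2 cells, whereas Gria2, the most abundant, had 413 CPM in the members and 301 CPM in the low-Foxp2 cells. Slc12a5, the chloride exporter of mature neurons, was still low, at 5.86 CPM in the members, against 23.4 CPM there for the importer Slc12a2.

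Receptors for migration and guidance differed gene by gene. Erbb4, the neuregulin receptor of tangentially migrating neurons, had 195 CPM in the members, against 107 CPM in the other Dlx-expressing cells (0.86, 0.72 to 1.01) and 79.2 CPM in the low-Foxp2 cells (1.30, 1.09 to 1.51), and was at 213 CPM in the Lhx6 group. Vldlr, a reelin receptor and a reported Foxp2 target, had 62.1 CPM in the members and 28 CPM in the low-Foxp2 cells. Dcc, the netrin receptor, had 24.2 CPM in the members and 8.43 CPM in the other Dlx-expressing cells, below the level limit as a mean. Epha4, an ephrin receptor, had 141 CPM in the members and 237 CPM in the others. Of 14 measured receptors none was past 2-fold against the other Dlx-expressing cells, with a median of 0.04. Cdh8, a cadherin, had 49.6 CPM in the members and 21.2 CPM in the others (1.22, 0.92 to 1.52). Of 10 measured genes reported as protein partners of Foxp2, only Sox5 was past 2-fold against the other Dlx-expressing cells, and 4 measured reported targets had a median of 0.35 with none past 2-fold.

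**Figure D4:**
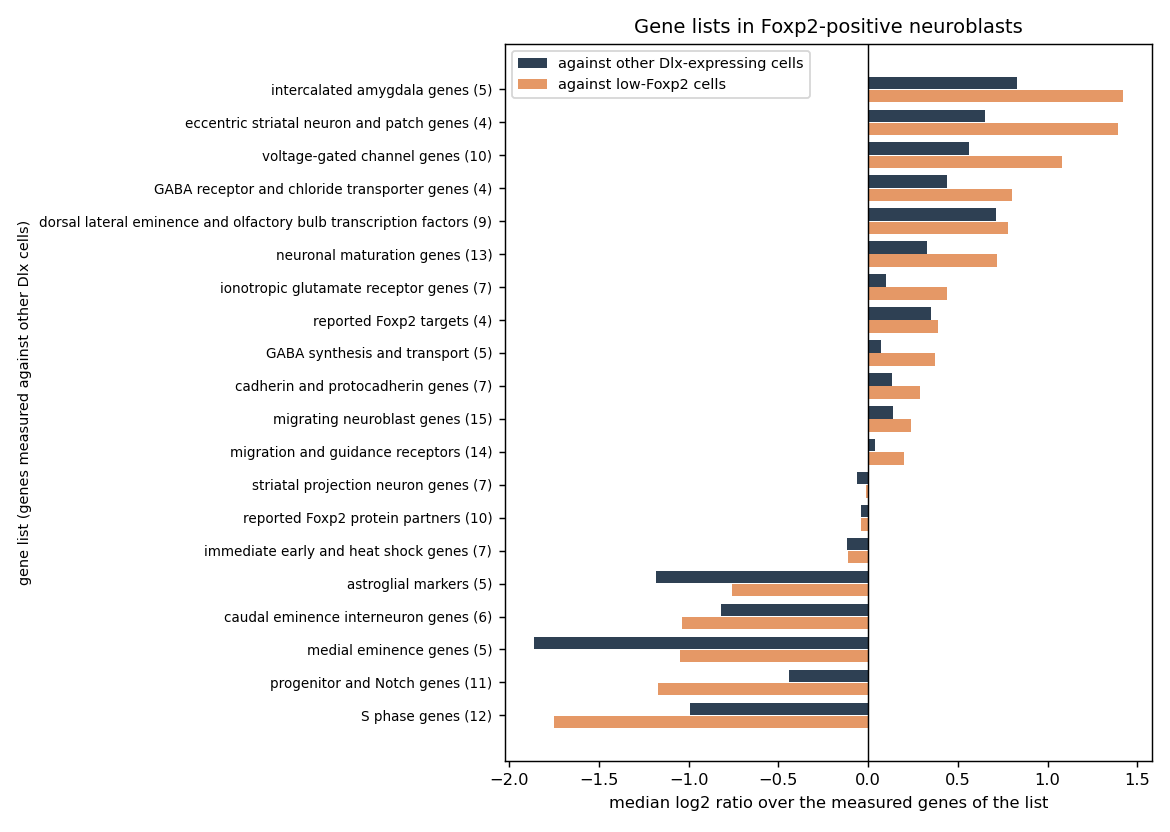
Median log2 ratio (horizontal) of the Foxp2-positive neuroblasts over all other Dlx-expressing cells (dark bars) and over the low-Foxp2 cells (orange bars) for lists with at least 3 measured genes in both, with the number measured in the first comparison in brackets. The intercalated amygdala list stands at 0.83 and 1.42, and the S phase list at -0.99 and -1.75.

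By genes outside the rule, members made up the largest share of the neighbours of members. In principal components of 2000 variable genes made without the rule genes, 50.6% of the 15 nearest neighbours of a member were members, beside a share of 20.1% of members among all the cells. A further 19.9% of their neighbours were Six3 cells, which made up 18.6% of all the cells (interval 16.5 to 20.9). Sp8/St18/Prokr2 cells were 15.3% of the neighbours and 27.8% of all cells, low-Foxp2 cells 11.9% and 23.4%, Ppp1r1b/Drd1/Ebf1 cells 1.39% and 1.55%, and Lhx6 cells 0.978% and 8.54%. Among neighbours of low-Foxp2 cells 9.99% were members. In 134 of the 259 members (51.7%) a majority of the neighbours were members, and the same held for 38 of the 240 Six3 cells and for 9 of the 301 low-Foxp2 cells. The share of neighbours that were members was 22.8% for members with 2 Foxp2 UMIs, 41.8% with 3 or 4, 58.0% with 5 to 9 and 60.4% with 10 or more. That share was 7.92% for low-Foxp2 cells with 0 Foxp2 UMIs and 17.2% for those with 1.

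Against the Six3 group, 20 of 6474 measured genes were at least 2-fold higher in the members (0.309%) and 121 at least 2-fold lower (1.87%). Among listed genes, Pbx3 had 876 CPM in the members and 375 CPM in the Six3 cells (1.22, 1.13 to 1.32), and Erbb4 195 CPM in the members and 89.0 CPM in the Six3 cells (1.13, 0.93 to 1.33). Tshz1 had 561 CPM in the members and 364 CPM in the Six3 cells, and Syt6 181 CPM in the members and 147 CPM in the Six3 cells, less than 2-fold apart. On the lower side, 4 of 5 measured astroglial markers were past 2-fold, with Slc1a3 at 45.3 CPM in the members and 242 CPM in the Six3 cells. Of 9 measured striatal genes 3 were 2-fold lower and none higher. The part of astroglial transcripts in the lower genes was not tested. The 118 Six3 cells with 2 or more Foxp2 UMIs had 657 CPM of Foxp2, 142 CPM of Foxp4, 609 CPM of Tshz1 and 689 CPM of Pbx3. The 55 members with 1 Six3 UMI, just inside the limit, had 781 CPM of Foxp2 and 196 CPM of Foxp4. The 23 cells of the Six3 group with 2 Six3 UMIs, just outside it, had 723 CPM of Foxp2 and 157 CPM of Foxp4.

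Against the Sp8/St18/Prokr2 group, 95 of 6387 measured genes were at least 2-fold higher in the members (1.49%) and 84 at least 2-fold lower (1.32%). Etv1 had 91.4 CPM in the members and 204 CPM in this group. Caudal eminence genes were lower by 2-fold in 4 of 6 measured, with Nr2f1 at 105 CPM in the members and 279.6 CPM in the group, and 6 of 12 measured S phase genes were lower by 2-fold. Striatal genes stood higher, 2 of 6 by 2-fold, with Foxp1 at 221 CPM in the members and 88.1 CPM in the group. The 97 members with 1 of the 3 genes detected, just inside the limit, had 670.3 CPM of Foxp2, 169 CPM of Foxp4 and 760.2 CPM of Pbx3. The 83 cells just outside it, with 2 or more Foxp2 UMIs and 2 or 3 of the genes, had 454 CPM of Foxp2, 87.2 CPM of Foxp4 and 590.3 CPM of Pbx3, at median depths of 9241 UMIs inside and 15183 outside. On the Dlx limit, the 15 members with a Dlx sum of 4 had 905 CPM of Foxp2 and 213 CPM of Foxp4, and the 22 cells with a sum of 3 had 556 CPM of Foxp2 and 187 CPM of Foxp4.

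EYFP, the mark of descent from the Emx1-expressing cortical primordium, was found in few members. In all, 28 of the 259 members had an EYFP UMI (10.8%, Clopper-Pearson interval 7.30 to 15.2), against 364 of the 1029 other Dlx-expressing cells (35.4%, 32.4 to 38.4). The share was 20.8% in the Six3 group, 23.6% in the Lhx6 group, 33.2% in the low-Foxp2 group, 45.0% in the 20 Ppp1r1b/Drd1/Ebf1 cells and 50% in the Sp8/St18/Prokr2 group. Members were shallower than the others, but the order held after thinning to 3000 UMIs, with 5.93% of members (3.36 to 9.59) and 22.0% of the other Dlx-expressing cells (19.5 to 24.7). The share in the Six3 group after thinning was 7.95% (4.85 to 12.1), an interval that overlapped that of the members. Excitatory-marker cells, which descend from the Emx1 domain, had EYFP in 86.0%, and microglial-marker cells, which do not, in 0 of 40 cells, which allows up to 8.81%. In UMIs, EYFP had 41.0 CPM in the members and 154 CPM in the other Dlx-expressing cells.

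**Figure D5:**
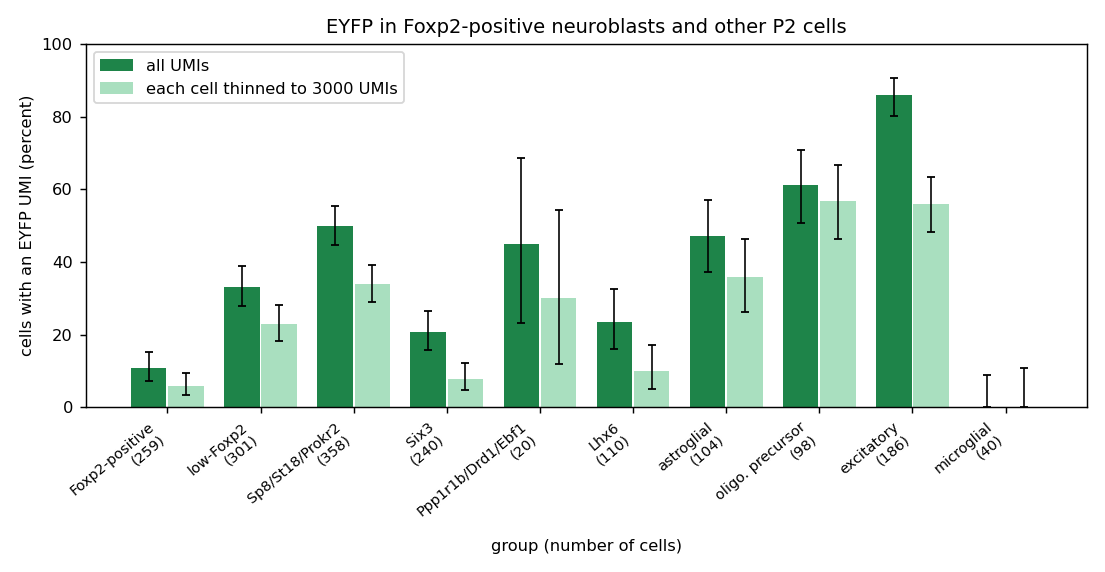
Share of cells with 1 or more EYFP UMIs (percent) in the Foxp2-positive neuroblasts (left), the 5 groups of other Dlx-expressing P2 cells and 4 classes of other P2 cells set by markers, from all UMIs (dark) and after thinning each cell to 3000 UMIs (light); lines are exact binomial 95% intervals. The members stand at 10.8% and 5.93%, the Sp8/St18/Prokr2 group at 50% and 34.0%, and excitatory-marker cells at 86.0% and 55.9%.

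Over the number of Foxp2 UMIs, the EYFP share was 32.5% in cells with 0, 35.8% with 1, 12.1% with 2, 8.62% with 3 or 4, 6.45% with 5 to 9 and 17.3% with 10 or more (9.57 to 27.8). At the limit of the rule, 4 of 33 cells with 2 Foxp2 UMIs had EYFP (interval 3.40 to 28.2) and 24 of 67 cells with 1 (24.5 to 48.5), and this step was not tested. The intervals of the 4 steps within the members overlapped. The 28 members with EYFP had a median of 14462.5 UMIs and the 231 without it 8523, so the split also follows depth, whose part was not tested. Members with EYFP had 600.4 CPM of Foxp2, against 825 CPM in members without, 376 CPM of Tshz1 against 603 CPM, and 596 CPM of Pbx3 against 939.6 CPM. Vim stood at 197 CPM in members with EYFP and 64.2 CPM in members without (1.62, 1.22 to 2.01), and Nfia at 199 CPM with and 69.0 CPM without (1.53, 1.14 to 1.92). Foxp1 stood at 309.8 CPM in members with EYFP and 201 CPM in members without. Emx1 had 3 UMIs in the members with EYFP and none in those without.

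In the E18 library 5 cells met the same rule, of 221 cells within its Dlx and mitotic limits (2.26%, 0.739 to 5.20), against 259 of 1288 in the P2 library (20.1%). The 5 cells had 2 to 4 Foxp2 UMIs and 2018 to 3957 UMIs in all. They held 22 UMIs of Meis2, 10 of Pbx3, 6 of Tshz1, 2 of Foxp4 and 1 of Foxp1. Dlx-expressing E18 cells had a median of 4929 UMIs, against 10978 at P2, and age, dissection, mouse line and library cannot be told apart in this comparison.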

How the data were processed

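Single-cell RNA-seq libraries of the P2 V-SVZ and of the E18 cortex with its dorsal V-SVZ were analysed, 1 library each. The deposited values are whole-number UMI counts for each gene in each barcode, made with Cell Ranger 4.0.0 per the file headers, on build mm10 per the submitters' processing notes; neither source names the cell calling or the annotation release. The other deposited columns, gene identifiers and barcodes, carry no measurement per the file headers.

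The members and gene lists were chosen with earlier results of these data known. Cells were filtered and grouped by the stated limits, and cells failing several went to 1 group only. Counts were summed per group and scaled to CPM with numpy 2.4.6 and pandas 2.3.3. Poisson, binomial and conditional 95% intervals (scipy 1.17.1) cover counting error only, and UMIs of 1 cell are not independent. With 1 library per age there were no replicates and no test. Named genes are those past 2-fold with a mean of 20 CPM or more, ordered by the end of the interval closest to 0: 15 higher and 12 lower against the other Dlx-expressing cells, and 10 higher and 8 lower against the low-Foxp2 cells. Other named genes come from 34 gene lists, of which 2 genes are not in the files, or were followed over Foxp2 UMIs. Marker classes of other P2 cells had 4 or more UMIs of 1 type's markers and at most 1 Dlx UMI. Doublets were not removed; Scrublet (scanpy 1.11.5) marked only 5 cells by its automatic limit, so its highest 5% of scores were left out as an alternative. Neighbours were found with scikit-learn 1.9.0. The summing and interval steps were tested on simulated data. Gene positions come from the GENCODE annotation of GRCm38 and promoters from RefSeq on GRCm38.p6. Alternatives changed each limit, the level filter, the scaling, the summing and the neighbour settings.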

Additional observations from a re-analysis of the deposited data

How the results depend on the processing

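The number of Foxp2-positive neuroblasts was 138 with at most 5% mitochondrial UMIs and 162 with none of Sp8, St18 and Prokr2 detected, against 259. Their EYFP share was 5.93% after thinning and 6.18% at 2 or more EYFP UMIs, against 10.8%. The E18 library held 3 such cells, against 5, both with 3 or more Foxp2 UMIs and with a Dlx sum of 8 or more.

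With none of Sp8, St18 and Prokr2 detected, 65 genes were at least 2-fold higher and 127 lower against the other Dlx-expressing cells, and 196 higher and 261 lower against the low-Foxp2 cells. With a mean of 50 CPM or more the counts were 14 higher and 24 lower, and 46 higher and 44 lower. With no filter on level they were 1254 higher and 1088 lower, and 1068 higher and 1310 lower, where genes of few UMIs enter. The count was 67 higher without other Dlx-expressing cells with 2 or more Foxp2 UMIs, and 50 lower without cells with 4 or more UMIs of another type's markers, both chosen after seeing the data. The cause of these shifts was not tested. The median log2 ratio of medial eminence genes against the low-Foxp2 cells was 0.14 with none of Sp8, St18 and Prokr2 detected, against -1.05.

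Of 86 counts and shares under alternatives, 20 moved by more than 1.5 times or out of the interval of the reported share. Of 639 ratios of named genes, 100 moved out of the interval of the reported ratio, none changed sign, and 7 were under 2-fold, from 5 of 45 named results. Of 582 list medians, 94 moved by more than 0.2 and 1, the medial one above, reversed. The E18 count without the highest Scrublet scores was not run. No paired analysis was possible because each age has 1 library. Depth limits receptors, peptides and other genes of few UMIs: 0 UMIs in the members allow a UMI in up to 1.41% of cells, which does not limit the share of cells that express the gene.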
